A study of Homo sapiens with 4 samples.

Results

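The 10 genes here encode subunits of mTORC1, its regulators RHEB, TSC1 and TSC2, and some proteins through which lysosomes report amino acids to it. They were chosen by their Ensembl gene IDs and make up 10 of the 60676 IDs listed in every count file: MTOR (ENSG00000198793), RPTOR (ENSG00000141564), MLST8 (ENSG00000167965), RHEB (ENSG00000106615), LAMTOR1 (ENSG00000149357), RRAGA (ENSG00000155876), RRAGC (ENSG00000116954), SLC38A9 (ENSG00000177058), TSC1 (ENSG00000165699) and TSC2 (ENSG00000103197). All 10 passed the expression filter and none was at 0 in any library.

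The libraries came from MiaPaCa, an established line of human pancreatic cancer cells. SRP9 is an RNA-binding subunit of the signal recognition particle, where it contacts the Alu domain, and the study asked what its nuclear form does. Cells were electroporated with SRP9 variant 1 or variant 2, each carrying a nuclear localisation signal and a 3xFLAG tag on a plasmid that also encoded acGFP1, then grown in Geneticin and sorted for the fluorescence. The groups were RIP of variant 1 (RNA precipitated with the tagged protein), RIP of variant 2, input of variant 1 (whole-cell RNA of the same experiment) and input of variant 2, with 1 library each. All 4 groups thus carried a tagged construct, and no precipitate from cells without one was analysed here.

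RIP of variants 1 and 2 gave 3921361 and 5211354 counts in total, against 50454080 and 58815384 for the inputs. Levels are given as CPM, counts scaled by the library total, and a single count equalled 0.255 and 0.192 CPM in RIP of variants 1 and 2, against 0.0198 and 0.0170 CPM in their inputs. The other IDs have no gene names in the sources used here, so neither the transfected gene nor cell type markers were checked.

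mTORC1 is a protein kinase complex that promotes protein synthesis and restrains autophagy when growth factors and amino acids are present. Amino acids are sensed at the lysosome, where Ragulator anchors a pair of Rag GTPases that draw mTORC1 to the membrane, and RHEB then switches the kinase on. The TSC complex turns RHEB off. Pancreatic cancer cells are known for feeding on amino acids recovered in their lysosomes.

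Lysosomal genes often carry an E-box, the hexamer CACGTG, which TFEB and related factors bind. The hexamer was searched in the 250 bases before each start in RefSeq's promoter table (GRCh38.p14). The hexamer is its own reverse complement, so 1 search covers both strands. The table held 8 of the 10 genes, not MLST8 or RRAGA, and the hexamer was present for 3 of them, against 2110 of the 27305 genes in the table (7.73%). These windows are shown because the E-box is a feature that some of the genes share apart from their counts. RNA libraries do not measure promoters, and a match is only a description. Each is 60 bases on the gene's own strand with the hexamer in capitals, from RRAGC (chr1:38859852-38859911, minus strand), LAMTOR1 (chr11:72103430-72103489, minus strand) and TSC2 (chr16:2047844-2047903, plus strand).
RRAGC: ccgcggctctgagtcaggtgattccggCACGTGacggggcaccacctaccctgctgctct
LAMTOR1: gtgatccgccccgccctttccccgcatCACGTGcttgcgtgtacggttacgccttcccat
TSC2: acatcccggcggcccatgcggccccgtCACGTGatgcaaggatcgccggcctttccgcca
The hexamer began 112 bases before the start in RRAGC, 165 in LAMTOR1 and 114 in TSC2, the last at only 1 of the 2 TSC2 starts in the table. The log2 fold changes of RIP over input in the fit described next were -0.52 for RRAGC, -2.07 for LAMTOR1 and -0.70 for TSC2, and the differences between these genes were not tested.

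Relative to the inputs, 6 of the 10 genes were lower in RIP: MTOR, RPTOR, MLST8, RHEB, LAMTOR1 and RRAGA. These are all 3 core subunits of the complex, its activator, the Ragulator anchor and RagA of the Rag GTPases. Lower calls were common by the same test, at 42.1% of the 15450 IDs with at least 50 counts in each input. RPTOR, MLST8 and LAMTOR1 were not called on library totals. In this fit 0 genes were called higher, although TSC1 had an unadjusted p of 0.048. DESeq2 and limma-voom each called 2 higher (SLC38A9 and TSC1), but the share of all IDs that they called was not counted. The remaining 4, namely RRAGC, SLC38A9, TSC1 and TSC2, did not pass the main test, and SLC38A9 and TSC1 had values above those of the inputs. The test was edgeR's quasi-likelihood test over both variants, after TMM scaling, with Benjamini-Hochberg adjusted p under 0.05 over 41622 IDs.

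Across all tested IDs, 49.5% were called higher and 15.8% lower. Most of the higher ones were scarce in the inputs, so the 15450 IDs that reached 50 counts in each input, called input-expressed below, are the closer background. All 10 genes belong to these. In the same fit 8.33% of them were called higher and 42.1% lower, so 6 of 10 lower calls stood beside a background in which lower calls were common. The median log2 fold change of RIP over input was -1.72 for the 10 genes, -1.15 for the input-expressed IDs and 3.65 for all tested IDs. Both variants served as samples of a fraction although they are different constructs, so the p-values measure only the spread between these libraries.

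The zero point of this comparison depends on scaling. TMM scaling lowered RIP over input by 1.18 (variant 1) and 1.17 (variant 2) on the log2 scale relative to library totals. On library totals 3 of the 10 genes were lower (MTOR, RHEB, RRAGA) and 2 higher (SLC38A9, TSC1), but the share of all IDs called there was not counted. The same 5 calls were made when the input-expressed IDs were fitted alone with their own TMM scaling, where 22.1% of IDs were called higher and 23.7% lower. With these scalings the median of the input-expressed IDs was 0.05 and -0.03. SLC38A9, TSC1, RRAGC and TSC2 lay above the median of the input-expressed IDs with TMM scaling, and the other 6 genes lay below it. The same held with library totals, DESeq2 size factors and the input-expressed IDs alone. Each scaling moves all IDs of a library alike, the median included, so this could hardly have changed and adds no separate support.

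**Figure D1:**
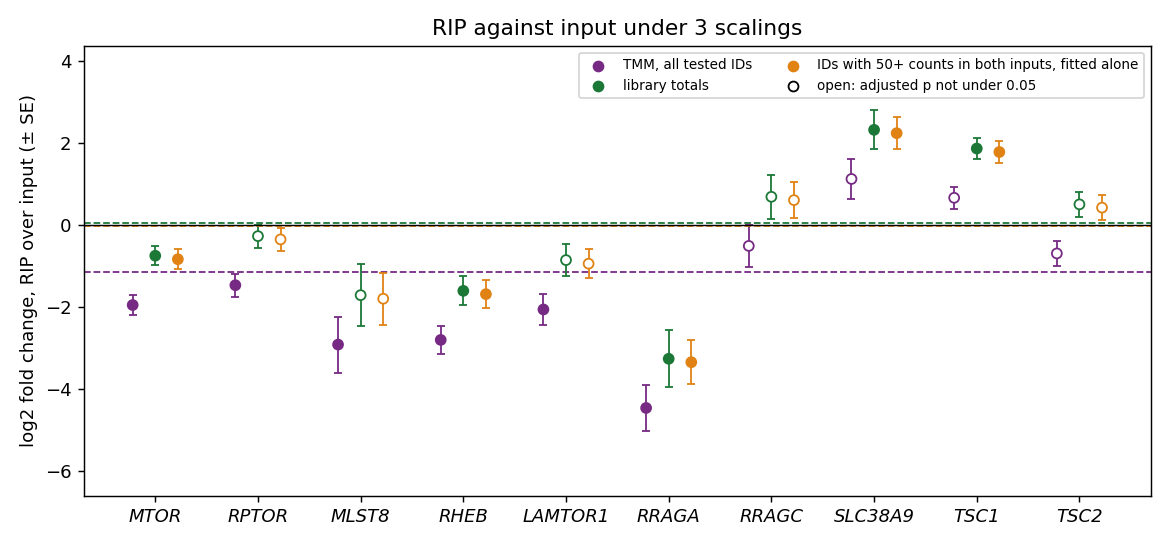
Log2 fold change of RIP over input (± SE) for the 10 genes from edgeR fits under TMM scaling of all tested IDs, library totals, and the 15450 input-expressed IDs (50 counts or more in each input) fitted alone. Filled points have an adjusted p under 0.05 and dashed lines mark the median of the input-expressed IDs in each fit. MTOR, RHEB and RRAGA are filled and below 0 in all 3 fits, and RRAGC and TSC2 change sign.

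The kinase gene MTOR reached 127 CPM in RIP of variant 1 (116 to 138, exact Poisson interval at 95%) and 150 CPM (140 to 161) in RIP of variant 2, against 259 CPM (255 to 264) and 216 CPM (213 to 220) in the inputs. Both RIP values were thus below both inputs, and no 2 neighbouring intervals overlapped. Intervals here and below cover counting error only. The log2 fold change of RIP over input was -1.96 ± 0.24 (SE), with an edgeR adjusted p of 0.0020, and -0.76 ± 0.23 on library totals (edgeR adjusted p = 0.027). In RefSeq 6 genes overlap the span of MTOR, among them ANGPTL7 and MTOR-AS1, whose reads may not be separable from its own.

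RPTOR encodes raptor, which presents substrates to the kinase and holds the complex on the Rag GTPases. Its level was 84.2 and 70.8 CPM in RIP of variants 1 and 2, against 81.6 and 109 CPM in the inputs. The fractions interleaved on library totals, with RIP of variant 1 beside the input of variant 1. The log2 fold change was -1.48 ± 0.28 (edgeR adjusted p = 0.0066), but -0.28 ± 0.28 on library totals (edgeR adjusted p = 0.41), and without RIP of variant 2 it was -1.33 and not called (edgeR adjusted p = 0.051). In RefSeq 6 genes overlap its span, 4 of them long noncoding RNAs, and the counting may not have separated their reads.

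MLST8 encodes a WD-repeat protein that stabilises the kinase domain. It had 16 and 85.5 counts in RIP of variants 1 and 2 (4.08 and 16.4 CPM), against 1895.5 and 1885 counts in the inputs (37.6 and 32.0 CPM). RIP was below input with either variant, and the RIP libraries lay further apart than the inputs. Its log2 fold change was -2.93 ± 0.68 (edgeR adjusted p = 0.011), and 1 library moved it widely, as it was -2.29 without RIP of variant 1 and -4.24 without RIP of variant 2, called lower in both cases. On library totals it was -1.72 ± 0.75 and not called (edgeR adjusted p = 0.086). The span of MLST8 shares 201 bases with that of BRICD5 in RefSeq.

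RHEB, the small GTPase that activates the kinase directly, had 32.9 and 20.3 CPM in RIP of variants 1 and 2, against 81.0 and 84.1 CPM in the inputs. The inputs did not differ beyond counting error, while both RIP libraries lay clearly below them. Its log2 fold change was -2.81 ± 0.35 (edgeR adjusted p = 0.0020), and -1.61 ± 0.35 on library totals (edgeR adjusted p = 0.010). RefSeq names 3 RHEB pseudogenes, and both input values hold a fraction of a read, so reads may have been divided between near-identical copies.

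LAMTOR1 encodes the Ragulator subunit that is lipid-anchored in the lysosomal membrane. It had 23.5 and 40.9 CPM in RIP of variants 1 and 2, against 64.2 and 55.3 CPM in the inputs. Neither RIP library reached an input. RIP over input had a log2 fold change of -2.07 ± 0.37 (edgeR adjusted p = 0.0057), and -0.86 ± 0.40 on library totals, where it was not called (edgeR adjusted p = 0.098). The RefSeq span of LRTOMT covers all of LAMTOR1, so reads of both genes may not be separable.

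The Rag GTPases act as a heterodimer of RagA or RagB with RagC or RagD, yet the genes of 2 such partners differed in these libraries. RRAGA had 10 and 17 counts in RIP of variants 1 and 2, against 1739 and 1347 counts in the inputs. These are 2.55 CPM (1.22 to 4.69) and 3.26 CPM (1.90 to 5.22), against 34.5 and 22.9 CPM. It had the lowest fold change of the 10 genes, at -4.47 ± 0.57 on the log2 scale (edgeR adjusted p = 0.0022), and was called lower under all 12 alternatives, with -3.27 ± 0.70 on library totals (edgeR adjusted p = 0.0094). Only 2.60% of the input-expressed IDs lay below it. RefSeq names 1 RRAGA pseudogene, whose reads may not be separable from those of RRAGA.

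RRAGC had 29.2 and 21.1 CPM in RIP of variants 1 and 2, against 17.4 and 14.3 CPM in the inputs. On library totals both RIP values were above both inputs, although the intervals of RIP of variant 2 and the input of variant 1 overlapped. The log2 fold change was -0.52 ± 0.50 with TMM scaling (edgeR adjusted p = 0.39) and 0.68 ± 0.54 on library totals (edgeR adjusted p = 0.30). The sign was thus set by the scaling, and neither value passed the test.

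Ratios between genes of the same library do not depend on scaling. RRAGC counts were 11.4 times RRAGA counts in RIP of variant 1 and 0.506 times in its input, a 22.5-fold difference (95% counting interval 11.7 to 43.2). With variant 2 the count ratios were 6.47 in RIP and 0.625 in the input, a 10.4-fold difference (6.17 to 17.4). The shift towards RRAGC in RIP was therefore seen with either variant, and its size differed within overlapping intervals.

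SLC38A9, a lysosomal transporter that senses arginine for mTORC1, had the highest RIP over input of the 10 genes. It had 42.2 and 39.1 CPM in RIP of variants 1 and 2, against 8.25 and 8.38 CPM in the inputs. Both RIP values overlapped each other and lay above both inputs, which overlapped too. Its log2 fold change was 1.12 ± 0.49 (edgeR adjusted p = 0.085), and 2.32 ± 0.48 on library totals (edgeR adjusted p = 0.0087). Of the input-expressed IDs, 85.8% lay below it. Relative to MTOR in the same libraries, SLC38A9 was 10.5-fold (8.60 to 12.8) higher in RIP than in input with variant 1 and 6.74-fold (5.64 to 8.06) with variant 2. MTOR was far more abundant in the inputs. Tested IDs with 500 to under 1000 summed input counts, as SLC38A9 had, had a median log2 fold change of 0.07. Those with 20000 to under 50000, as MTOR had, had a median of -3.11, so a wide difference was common at these abundances.

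TSC1 encodes hamartin, the scaffold of the complex that inactivates RHEB. It had 133 CPM in RIP of variant 1 and 172 CPM in RIP of variant 2, against 43.4 and 42.3 CPM in the inputs. The RIP libraries stood apart from each other and above the inputs, which overlapped. In the fit over both variants its log2 fold change was 0.66 ± 0.27 with TMM scaling (edgeR adjusted p = 0.069) and 1.86 ± 0.27 on library totals (edgeR adjusted p = 0.0041). Without RIP of variant 1 the TMM fit gave 0.80 and called it higher (edgeR adjusted p = 0.039), while the 3 fits without another library gave 0.34 to 0.61 and no call (edgeR adjusted p from 0.099 to 0.60).

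TSC2 encodes tuberin, the GTPase-activating subunit of the same complex. Its level was 93.0 and 63.4 CPM in RIP of variants 1 and 2, against 57.2 and 55.1 CPM in the inputs. RIP of variant 1 was the highest library, and the interval of RIP of variant 2 overlapped that of the input of variant 1. The log2 fold change was -0.70 ± 0.31 (edgeR adjusted p = 0.083) and 0.50 ± 0.31 on library totals (edgeR adjusted p = 0.19). Without RIP of variant 1 it was -1.04 and called lower (edgeR adjusted p = 0.030), while the 3 fits without another library gave -1.02 to -0.43 and no call (edgeR adjusted p from 0.12 to 0.25). The span of TSC2 shares 784 bases with that of PKD1 in RefSeq.

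The TSC partners therefore differed less than the Rag partners. TSC1 relative to TSC2 was 1.89-fold (1.64 to 2.19) higher in RIP than in input with variant 1 and 3.54-fold (3.09 to 4.06) with variant 2. The intervals of the variants did not overlap. Relative to RHEB, which the TSC complex acts on, TSC1 was 7.56-fold (6.19 to 9.23) and 16.8-fold (13.7 to 20.7) higher in RIP.

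**Figure D2:**
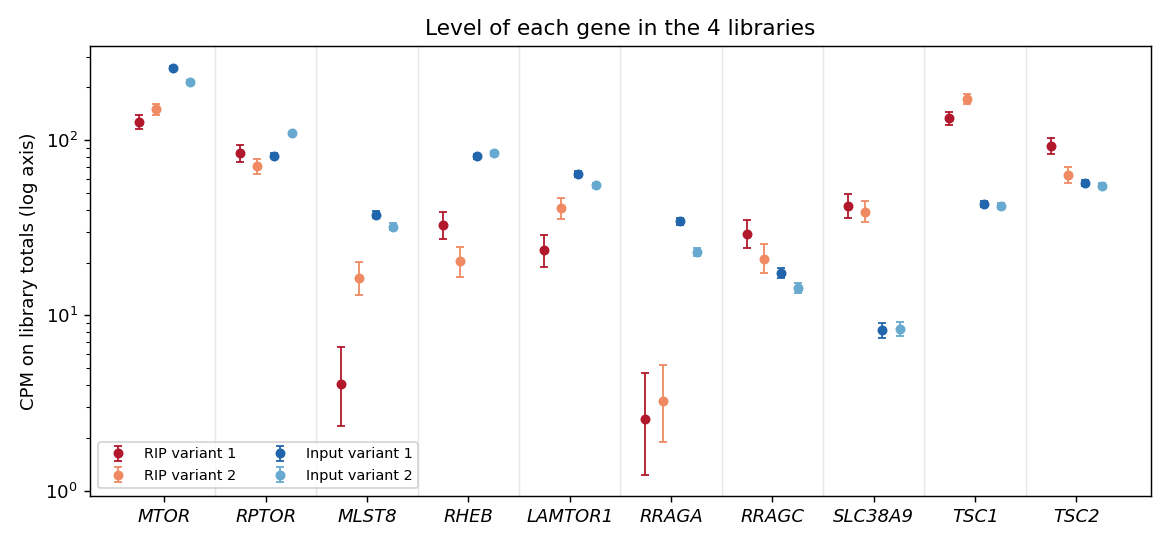
Level of each of the 10 genes in RIP of variants 1 and 2 and in the inputs of variants 1 and 2, as CPM on library totals (log axis), with 95% exact Poisson intervals for counting error. Levels of different genes are not corrected for length. MTOR, MLST8, RHEB, LAMTOR1 and RRAGA lie lower in both RIP libraries than in both inputs, and RRAGC, SLC38A9, TSC1 and TSC2 lie higher on this scale.

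Summed over the 10 genes, the RIP libraries held 571 and 598 CPM for variants 1 and 2, against 684 and 640 CPM in the inputs. The sums were closer to each other than the single genes were, since genes below and above their inputs offset each other.

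Each variant was then set against its own input, with 1 library a side and no test. With variant 1, 1 of the 10 genes, SLC38A9, was higher in RIP by 2-fold or more, and 6 were lower by as much. With variant 2 the numbers were also 1 and 6, and 1 and 6 genes were shared. These counts are for TMM scaling, and the share of all IDs past 2-fold with both variants was not counted. On library totals 2 were higher and 5 lower with variant 1, and 2 higher and 2 lower with variant 2. There, 30.7% of the input-expressed IDs were past 2-fold upward and 32.4% downward with variant 1, and 31.1% and 29.6% with variant 2. With TMM scaling the shares of all tested IDs past 2-fold were 63.1% upward and 23.1% downward with variant 1, and 64.4% and 21.2% with variant 2. Over the input-expressed IDs alone they were 16.1% and 54.7% with variant 1, and 15.7% and 53.5% with variant 2. The order of the genes was alike at its ends, with RRAGA lowest at a log2 ratio of -4.86 with variant 1 and -3.93 with variant 2, and SLC38A9 highest at 1.17 and 1.05. The median log2 ratio of the 10 genes was -1.67 with variant 1 and -1.65 with variant 2.

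**Figure D3:**
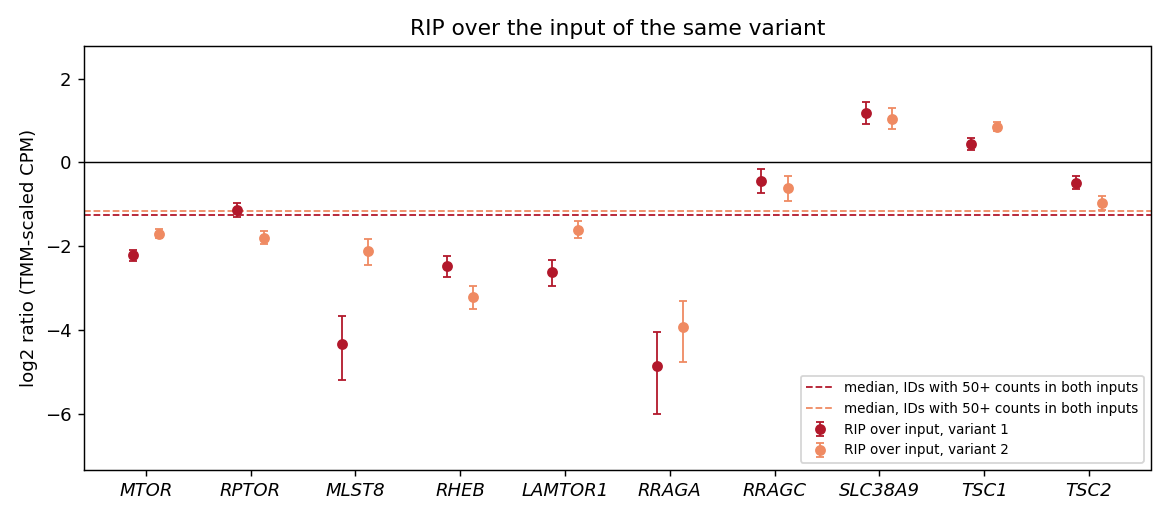
Log2 ratio of RIP over the input of the same variant, on TMM-scaled CPM, with 95% counting intervals. Dashed lines are the medians of the input-expressed IDs, at -1.25 for variant 1 and -1.17 for variant 2. SLC38A9 and TSC1 are above 0 with both variants, and MLST8 is the gene whose variants lie furthest apart.

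The RIP of variant 1 was compared with the RIP of variant 2, again without a test. Of the 10 genes, only MLST8 differed by 2-fold or more. Its log2 ratio of variant 1 over variant 2 was -1.97 (95% counting interval -2.87 to -1.22) in RIP, while it was 0.25 (0.16 to 0.34) in the inputs. The shares of all tested IDs past 2-fold were 18.7% upward and 22.8% downward in RIP of variant 1, and over the input-expressed IDs 12.74% and 18.01%, so 1 of 10 genes is no more than the background.

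Smaller differences between the RIP libraries were present in both directions. RHEB (0.70, 0.33 to 1.09), TSC2 (0.57, 0.35 to 0.79), RRAGC (0.47, 0.09 to 0.87) and RPTOR (0.26, 0.04 to 0.48) were higher with variant 1 by their counting intervals. LAMTOR1 (-0.78, -1.16 to -0.43), TSC1 (-0.36, -0.52 to -0.20) and MTOR (-0.23, -0.39 to -0.06) were lower, as was MLST8. For RRAGA and SLC38A9 the interval held 0, from -1.63 to 0.87 and from -0.18 to 0.43. There is no repeat library that would show how far 2 RIP libraries of the same variant differ.

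Between the inputs 0 of the 10 genes differed by 2-fold or more, where the shares of all tested IDs past 2-fold were 14.1% upward and 10.8% downward in the input of variant 1. Over the input-expressed IDs they were 3.78% and 3.42%, so 0 of 10 is near this background. These are bulk libraries, so between the inputs fewer cells with an RNA and less of it per cell cannot be told apart. RRAGA was furthest apart, with a log2 ratio of variant 1 over variant 2 of 0.61 (0.51 to 0.72), followed by RPTOR at -0.40 (-0.46 to -0.34). The intervals of RHEB, SLC38A9 and TSC1 held 0. For 4 genes the RIP and input differences had opposite signs with both intervals clear of 0. RPTOR was higher with variant 1 in RIP and lower in the input, and MTOR, MLST8 and LAMTOR1 ran the other way. RRAGC and TSC2 were higher with variant 1 in both, again with intervals clear of 0. Their input ratios were 0.31 (0.17 to 0.45) and 0.08 (0.004 to 0.15). For all tested IDs the RIP and input differences had a correlation of -0.0045. How many of these IDs had opposite signs was not counted, so 4 such genes cannot be called unusual. The ratio of RPTOR to MTOR was 2.11-fold (1.83 to 2.44) higher in RIP than in input with variant 1 but 0.934-fold (0.822 to 1.06) with variant 2.

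**Figure D4:**
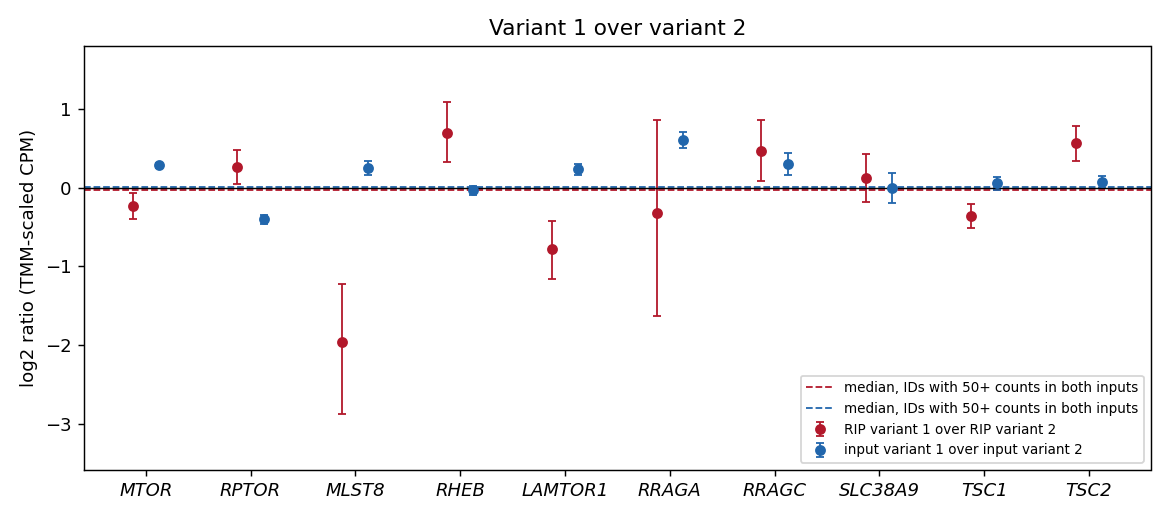
Log2 ratio of variant 1 over variant 2 for the RIP libraries and for the inputs, on TMM-scaled CPM, with 95% counting intervals. The RIP ratios run from -1.97 (MLST8) to 0.70 (RHEB) and the input ratios from -0.40 (RPTOR) to 0.61 (RRAGA).

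The genes differ widely in the length of genomic sequence they occupy, from 1.60 kb for RRAGA, whose coding sequence lies in a single exon, to 422 kb for RPTOR (RefSeq spans, introns included). The 3 genes with spans under 10 kb, RRAGA, MLST8 and LAMTOR1, had log2 fold changes from -4.47 to -2.07. The 7 longer genes ranged from -2.81 (RHEB) to 1.12 (SLC38A9). Across the 10 genes, the correlation of the fold change with log10 span was 0.56 (Pearson) and 0.58 (Spearman), and 0.07 and 0.17 over the 8 genes without RRAGA and MLST8. For the log2 ratio of variant 1 it was 0.67 and 0.61, and 0.19 and 0.24 over these 8 genes. With variant 2 it was 0.42 and 0.36, and -0.04 and -0.17 over the 8. The relation to span over the other IDs was not computed. Genes are not independent replicates and share all 4 libraries, so these are descriptions. TSC1 and RHEB have nearly equal spans, 54.0 and 53.9 kb, and lay 3.47 apart on the log2 scale.

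**Figure D5:**
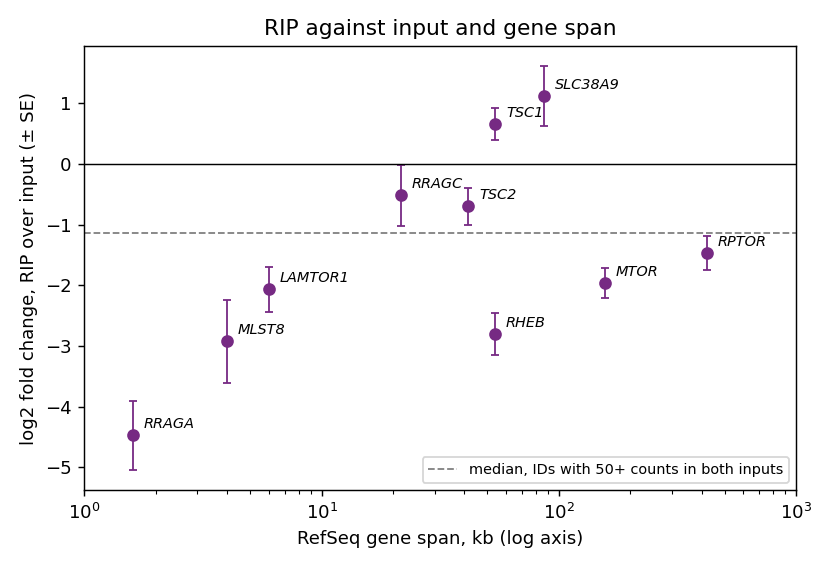
Log2 fold change of RIP over input (edgeR, TMM scaling, ± SE) against RefSeq gene span in kb (log axis) for the 10 genes. The dashed line is the median of the 15450 input-expressed IDs, at -1.15. RRAGA, MLST8 and LAMTOR1, with spans from 1.60 to 6.01 kb, lie below it, while the longer genes lie on both sides.

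On library totals the order of the 4 libraries was the same for MTOR, MLST8, LAMTOR1 and RRAGA, with the input of variant 1 highest and RIP of variant 1 lowest, although the intervals of the RIP libraries overlapped for RRAGA. The 3 tested IDs nearest to MTOR lay 0.269 to 0.345 away as Euclidean distance of log2 TMM-scaled CPM over the 4 libraries, whereas the nearest of the 9, RPTOR, lay 2.29 away and the furthest, RRAGA, 8.93 away. The 3 nearest were picked from all tested IDs and RPTOR from only 9 genes, so the shorter distances of the former were largely built in. The distance is one of level as well as of pattern, and the level depends on transcript length. LAMTOR1, at a distance of 4.16, had log2 ratios of RIP over input of -2.62 with variant 1 and -1.61 with variant 2, against -2.21 and -1.70 for MTOR, with overlapping counting intervals for either variant.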

How the data were processed

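HISAT2 2.1.0, featureCounts of Subread 2.0.0 and the build GRCh38.p13 are named, per the submitters' processing notes. Not given in the sources used here: annotation release, strand setting and treatment of multi-mapping reads. The authors deposited estimated counts per Ensembl gene ID, raw per the file headers, with totals that differ between libraries. Of these 10 genes, 8 have a fraction of a read in some library. Counts were rounded to whole numbers.

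The gene symbols come with the list of IDs. The reference gene table pairs 0 of 59792 genes with an Ensembl ID, so 15 lists of 73 other pathway genes and the cell type markers were not analysed here. Members and lists were chosen with earlier results of these data known, as were the gene ratios, spans, input bands and E-box search. All 10 members are named, as fixed by rule.

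RIP was compared with input in edgeR 4.0.16 (R 4.3.3) by glmQLFTest on all IDs that passed filterByExpr by fraction (minimum count 10), with TMM scaling, Benjamini-Hochberg adjustment and 2 residual degrees of freedom. SE is the log2 fold change divided by the root of F. Single-library ratios use TMM-scaled CPM with a prior count of 2. Intervals are 95%: exact Poisson for CPM, exact binomial for 2 libraries, and a normal approximation on the log scale for ratios between genes. They are too narrow if both reads of a fragment were counted. Labels tie each RIP to its input. Across the 10200 IDs with at least 50 counts in all 4 libraries, RIP and input differences between variants had a correlation of -0.0081. The procedure was run on simulated data in which most IDs had equal means in both fractions. Such data do not test the shift between fractions on which the zero point here depends. Alternatives used DESeq2 1.42.0 and limma 3.58.1.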

Additional observations from a re-analysis of the deposited data

How the results depend on the processing

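With the construct as replicate block, 0 genes were called higher and 6 lower, as without it, and no call changed. MTOR, RHEB and RRAGA were called lower under all 12 alternatives. The higher calls became 2 (SLC38A9, TSC1) with DESeq2 size factors, library totals, the 15450 input-expressed IDs fitted alone, at least 50 counts in 2 libraries, the DESeq2 Wald test and limma-voom. The lower calls became 3 with library totals and with the input-expressed IDs alone. Leaving out 1 library gave 0 to 1 higher calls (1 without RIP of variant 1) and 5 to 7 lower calls, with the lone library assumed to vary like the other fraction. RRAGC turned to 0.68 on library totals, 0.60 with the 15450 input-expressed IDs alone and 0.0020 with at least 50 counts in 2 libraries, and TSC2 to 0.50 and 0.42 under the first 2 of these. None of these turned values was called. For the alternative fits, the share of all IDs called was not counted, except with the input-expressed IDs fitted alone. In the single-library ratios of RIP over input, the genes at least 2-fold higher became 2 for variant 1 (library totals, TMM over the 15450 input-expressed IDs) and 2 for variant 2 (these and DESeq2 size factors). Those at least 2-fold lower became 2 (library totals) and 3 (TMM over the 15450 input-expressed IDs) for variant 2. Each scaling moves all genes of a library alike. The cause was not tested for the other changes. The alternatives for the other pathway genes were not run, as their IDs could not be matched. RRAGA and, with variant 1, MLST8 rest on under 20 RIP counts, so their folds are the least precise.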

Other observations

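RIP over input depended on how abundant an ID was in the inputs, and 6 of the 10 genes lay above the median of the tested IDs in their own band of summed input count. The bands are cut on the inputs, which also form the denominator, so a falling median is partly built in. TSC1, with a log2 fold change of 0.66 against a band median of -1.26 (2000 to under 5000 counts), was above 96.8% of its band. MTOR, called lower at -1.96, was above 93.9% of its band (20000 to under 50000 counts), whose median was -3.11. TSC2 (92.4%) and RPTOR (91.2%) were also high in their bands, SLC38A9 lay above 76.8% and RRAGC above 50.5%. RRAGA was above 1.26% and MLST8 above 9.33% of the band that also holds TSC1, RHEB above 19.8% and LAMTOR1 above 47.2% of theirs.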
